A study of Drosophila melanogaster with 6 samples.

Results

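The genes described here are the 30 members of the ovarian piRNA pathway, chosen by name for their known roles in piRNA cluster transcription, nuclear silencing, amplification in the nuage, and processing at mitochondria and in Yb bodies. They were taken from 17070 genes that could be followed in both experiments. All 30 were found, moon under an older name in both experiments through the reference gene table, and Panx and tapas by identifier in experiment 1, where they carry older names. The RNA was recovered by immunoprecipitation (RIP-seq) from ovaries of wild-type Oregon-R females collected within 12 h of eclosion, with antibodies to Lsd1 or Bre1 or with IgG as the background control. About 200 females were used in each of 2 experiments, and each ovarian lysate was divided among the 3 antibodies, which gave 6 libraries and 2 per antibody. No library carried a mutation or a tagged protein, and nothing in the labels separates germ cells from the somatic cells of the ovary. Lsd1, encoded by Su(var)3-3, is a histone demethylase, and Bre1 is a ubiquitin ligase that acts on histones. The question of the series was which RNAs each antibody recovered over IgG.

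PIWI-interacting RNAs (piRNAs) are small RNAs that guide Argonaute proteins of the PIWI class to transposon transcripts in animal gonads. In the fly ovary their precursors are transcribed from heterochromatic clusters, exported, and cut in cytoplasmic granules around the nucleus (the nuage), on the surface of mitochondria and, in somatic follicle cells, in Yb bodies. Aubergine and AGO3 amplify piRNAs by cutting sense and antisense transcripts in turn, whereas Piwi carries its piRNA into the nucleus and directs silencing of transposon chromatin.

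The values are FPKM in experiment 1 and RPKM in experiment 2, which both set reads against transcript length and library size but came from different programs, so levels were compared within an experiment. The 6 libraries differed widely in depth. Outside ribosomal RNA, experiment 1 held 1435862 fragments with IgG, 1588671 with Lsd1 and 208990 with Bre1. Experiment 2 held 8739562 exon reads with IgG, 1619605 with Lsd1 and 7447852 with Bre1, and ribosomal RNA took 57.6%, 88.7% and 76.3% of all exon reads in these libraries. Lsd1 of experiment 2 and Bre1 of experiment 1 stood apart. Only 1 of the 30 members, armi, reached a value of 1 in Lsd1 of experiment 2, and 7 did in Bre1 of experiment 1, against 27 to 29 in the other 4 libraries. In Lsd1 of experiment 2, 24 members had under 50 exon reads, 13 had under 10, and rhi, cuff, moon and Panx had none, which allows up to 3 reads each. In Bre1 of experiment 1, 19 members had under 10 fragments. Germline markers were present, 6 of 7 at a value of at least 1 with IgG in experiment 1 and 7 of 7 in experiment 2. In experiment 1 their summed value was 209.7 with IgG, 353.6 with Lsd1 and 24.3 with Bre1, and in experiment 2 it was 585.6, 24.4 and 201.0. Follicle cell markers summed to 18.1, 23.6 and 8.35, and to 28.05, 9.37 and 19.2, in the same order. Muscle sheath markers went differently, at 102.4, 70.9 and 32.2 and then at 49.1, 65.6 and 47.6, with 3 of the 6 markers above IgG and 3 below it in Lsd1 of experiment 2. The part of these shifts in the results below was not tested.

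No member of the pathway passed the test in any comparison of the antibodies, and few genes did at all. Of all tested genes, 0.0299% passed for Lsd1 over IgG, 0.0299% for Bre1 over IgG and 0.0748% for Lsd1 over Bre1. Relative to IgG, the median member sat close to 0 on the log2 scale with Lsd1 in experiment 1. The members lay far below IgG with Lsd1 in experiment 2, and mostly below it with Bre1 in experiment 1. The medians were 0.04, -1.51 and -0.66, beside 0.03, -0.84 and -0.40 over all tested genes. With Bre1 in experiment 2, armi and shu stood above IgG, while del, squ and papi stood below it. With Lsd1, 16 of 28 tested members lay above IgG in experiment 1 and below it in experiment 2, beside 47.8% of tested genes, and the number above IgG in experiment 1 moved between 14 and 23 with the scaling. The antibodies of an experiment shared a lysate, so these ratios do not measure numbers of cells or RNA per cell. Between the experiments, fewer cells of a type and less RNA per cell cannot be told apart in bulk lysates.

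Among the genes of cluster transcription, del was the best measured. It encodes Deadlock, which links the chromatin reader Rhino to its partners. In the order IgG, Lsd1, Bre1, del was at 9.13, 16.3 and 1.56 FPKM in experiment 1 and at 28.6, 0.518 and 6.75 RPKM in experiment 2. It was thus above IgG with Lsd1 in experiment 1, far below IgG with Lsd1 in experiment 2, and below IgG with Bre1 in both. In the deposited values, 81% of tested genes lay above IgG with Lsd1 in experiment 1, and 97.6% lay below it in experiment 2. With Bre1, 97.3% lay below IgG in experiment 1, and 2.66% lay above it in experiment 2. The gene rhi encodes Rhino, an HP1 homologue that binds cluster chromatin, and was at 3.00, 3.24 and 0.166 FPKM and at 3.38, 0 and 1.35 RPKM in the same order. The gene moon encodes Moonshiner, a relative of a TFIIA subunit that starts transcription within clusters. Its values were 3.11, 2.01 and 0 FPKM and 2.44, 0 and 0.743 RPKM, so it was highest with IgG in both experiments. The gene cuff encodes Cutoff, which protects cluster transcripts from termination and processing, and lay under 1 in all 6 libraries, between 0 and 0.729. With cuff and fs(1)Yb below the filter (a value of at least 1 in at least 2 libraries), 28 of 30 members were tested.

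The nuclear silencing genes were led by piwi, the nuclear PIWI protein itself. Experiment 1 gave it 14.2, 18.9 and 2.23 FPKM with IgG, Lsd1 and Bre1, and experiment 2 gave it 24.9, 0.568 and 18.3 RPKM in the same order. No other member was higher than piwi with IgG in experiment 1, where it ranked 734 among the 6687 tested genes. The gene mael encodes Maelstrom, which acts with Piwi in silencing, and was at 4.78, 6.25 and 0.581 FPKM and at 5.995, 0.166 and 3.47 RPKM. The gene nxf2, whose product belongs to the mRNA export factor family and works in the Panoramix complex, was at 3.43, 4.39 and 0.623 FPKM and at 3.27, 0.0577 and 2.57 RPKM. Panx encodes Panoramix, the adaptor that brings silencing factors to the nascent transcript. It was at 2.64, 2.16 and 0.126 FPKM and at 4.06, 0 and 2.17 RPKM. The gene arx encodes Asterix, a zinc finger partner of Piwi, and was at 3.99, 2.70 and 0.168 FPKM and at 4.14, 0.142 and 1.46 RPKM. As deposited, Panx and arx were thus highest with IgG in both experiments, whereas mael and nxf2 were highest with Lsd1 in experiment 1. After scaling, the log2 ratios of Lsd1 to IgG there were 0.05 for mael and 0.02 for nxf2.

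Nuage amplification was the largest group, with 11 members. It holds the PIWI proteins of the nuage, Aubergine and AGO3. In experiment 1, aub was at 6.89, 9.29 and 0.732 FPKM with IgG, Lsd1 and Bre1, and AGO3 was at 3.90, 6.45 and 0.333 FPKM. In experiment 2, aub was at 11.6, 0.119 and 7.38 RPKM with IgG, Lsd1 and Bre1. AGO3 was at 10.2, 0.00661 and 3.75 RPKM, and its value with Lsd1 rested on 1 exon read. As deposited, both therefore lay above IgG with Lsd1 in experiment 1 and at a small share of the IgG value in experiment 2. In these values, 81% of tested genes also lay above IgG in experiment 1 and 97.6% below it in experiment 2. After scaling, the log2 ratios of Lsd1 to IgG in experiment 1 were 0.09 for aub and 0.30 for AGO3.

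Tudor domain proteins, which dock on methylated arginines of PIWI proteins, make up most of the nuage group. The founding member tud was at 5.07, 8.80 and 1.26 FPKM in experiment 1 and at 17.3, 0.267 and 13.3 RPKM in experiment 2. The gene tapas was at 5.14, 9.18 and 1.86 FPKM and at 10.8, 0.190 and 5.38 RPKM. Its relative tej, which encodes Tejas, was at 3.28, 5.57 and 0.519 FPKM and at 7.58, 0.0650 and 3.67 RPKM. As deposited, all 3 were highest with Lsd1 in experiment 1 and with IgG in experiment 2. The gene qin, whose product keeps Aubergine from pairing with itself in amplification, was at 1.98, 3.70 and 0.529 FPKM and at 7.46, 0.121 and 4.58 RPKM. The scaffold gene krimp was at 1.91, 2.81 and 0.0478 FPKM and at 5.36, 0.0165 and 2.06 RPKM. For spn-E, which encodes a helicase with a Tudor domain, the values were 3.39, 3.87 and 0.424 FPKM and 6.32, 0.166 and 4.87 RPKM. In these deposited values, the order of the 3 antibodies was the same for these members as for tud.

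The remaining nuage genes included squ, whose product Squash is a nuage component. It was at 7.52, 16.3 and 0.975 FPKM and at 13.2, 0.123 and 3.39 RPKM. The arginine methyltransferase gene csul was at 4.35, 6.78 and 0.565 FPKM and at 6.19, 0.376 and 2.75 RPKM. Its cofactor gene vls, which encodes Valois, was at 9.90, 7.04 and 0.412 FPKM and at 2.87, 0.562 and 1.82 RPKM. In contrast with the other 10 genes of its group, vls was highest with IgG in experiment 1 in the deposited values. In these values, 81% of tested genes lay above IgG with Lsd1 in experiment 1. After scaling, spn-E also lay below IgG with Lsd1 there, at a log2 ratio of -0.10. The rank of vls among tested genes with IgG went from 1087 in experiment 1 to 4881 in experiment 2.

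At mitochondria and in Yb bodies, armi was the most abundant member in experiment 2. It encodes Armitage, a helicase that brings precursors to the processing sites. Experiment 1 gave it 9.81, 11.1 and 2.07 FPKM for IgG, Lsd1 and Bre1, and experiment 2 put it at 17.95, 1.14 and 19.2 RPKM. The gene shu encodes Shutdown, a cochaperone needed to load PIWI proteins, and was at 8.86, 11.0 and 1.29 FPKM and at 8.79, 0.857 and 8.89 RPKM. For armi and shu alone among the 30 members, the deposited value with Bre1 in experiment 2 was above that with IgG. The acyltransferase gene mino was at 9.26, 9.82 and 2.08 FPKM and at 7.64, 0.493 and 5.02 RPKM. The gene papi, which encodes a Tudor protein of the mitochondrial surface, was at 4.70, 6.40 and 0.424 FPKM and at 13.8, 0.180 and 4.39 RPKM.

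The other members of this step were lower. The gene zuc encodes Zucchini, the nuclease that phases piRNAs, and was at 2.19, 2.71 and 0.242 FPKM and at 2.75, 0.0733 and 1.25 RPKM. For vret, which encodes Vreteno, a Tudor protein of primary piRNA processing, the values were 2.21, 2.77 and 0.106 FPKM and 2.76, 0.0271 and 1.97 RPKM. Gasz, which encodes a mitochondrial scaffold for Armitage, was at 2.98, 2.68 and 0.0662 FPKM and at 3.25, 0.0551 and 1.49 RPKM. Of these 3, Gasz was the only one highest with IgG in experiment 1 in the deposited values. After scaling, the log2 ratios of Lsd1 to IgG there were -0.30 for Gasz, -0.015 for zuc and -0.002 for vret. The Yb family encodes Tudor proteins of the processing bodies. Of this family, BoYb was at 1.23, 1.63 and 0.133 FPKM and 2.98, 0.0887 and 1.80 RPKM. SoYb was at 2.08, 4.38 and 0.215 FPKM and 5.61, 0.107 and 3.13 RPKM. The gene fs(1)Yb, whose product acts in the somatic Yb bodies, ran between 0.203 and 1.06 in all 6 libraries. The 2 lowest of them were again Bre1 of experiment 1 and Lsd1 of experiment 2.

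**Figure D1:**
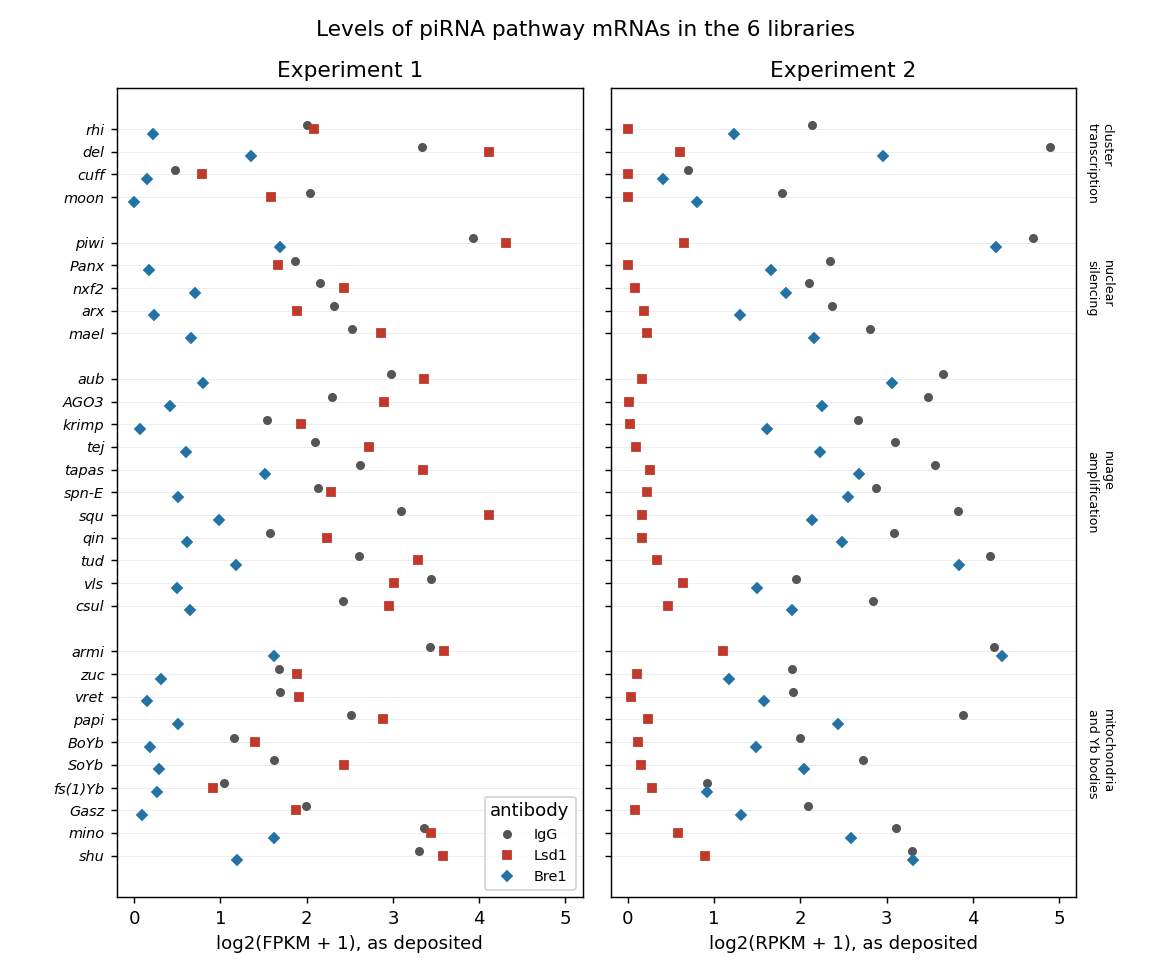
Deposited levels of the 30 members in the 6 libraries, as log2(value + 1), with FPKM on the left and RPKM on the right. Each point is 1 library, coloured by antibody, and genes are grouped by step of the pathway. In experiment 1 the Bre1 points lie lowest, and in experiment 2 the Lsd1 points do, with 1 of 30 members (armi) at a value of at least 1.

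With IgG alone, the order of the members was partly shared between the experiments. Across the 30 members, log2(value + 1) with IgG correlated at r = 0.76 between the experiments, which differ in lysate, library and quantification. The highest member was piwi in experiment 1 and del in experiment 2, where del ranked 374 and piwi 439 among tested genes. The lowest was cuff in both, at 0.391 FPKM and 0.622 RPKM. Besides vls, the ranks of tud (2130 and 714) and qin (4676 and 2262) also moved.

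The levels were then compared as log2 ratios of antibody to IgG within each experiment, after each library was divided by a scale factor and 1 was added. The factors come from the median over 1028 genes and were, in the order IgG, Lsd1, Bre1, 1.48, 1.85 and 0.377 in experiment 1 and 1.98, 0.370 and 1.25 in experiment 2. Lsd1 over IgG had a median log2 ratio of 0.04 over the 28 members in experiment 1, beside 0.03 over all tested genes. Ratios ran from -0.68 for vls to 0.69 for squ. The nuage group had the highest median, 0.30, with 9 of 11 members above 0, against -0.14 for cluster transcription, 0.02 for nuclear silencing and -0.01 for mitochondria and Yb bodies. In total 16 of 28 members lay above 0, beside 54.6% of tested genes. This count was 23 in the values as deposited (beside 81%) and 14 with quantile normalization (beside 50.5%).

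In experiment 2 the median Lsd1 over IgG ratio of the members was -1.51, beside -0.84 over all tested genes. The lowest ratios were those of del (-2.69), AGO3 (-2.60), squ (-2.53) and tud (-2.50). Only vls was above 0, at 0.04, and it turned to -1.31 in the values as deposited, where all 28 members lay below IgG, as did 97.6% of tested genes. With quantile normalization, or with the trend on exon length removed, shu was above 0 as well as vls, and 54.1% and 48.8% of tested genes lay below 0. In total 27 of 28 members lay below 0, beside 83% of tested genes. Relative to the median of all tested genes, the nuage group was lowest at -1.20, nuclear silencing was at -0.64, cluster transcription at -0.60, and mitochondria and Yb bodies at -0.32. Because nearly all Lsd1 values were below 1 before scaling, the added 1 limits how low each ratio can go to what the gene's IgG level allows.

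Among the members, higher Lsd1 over IgG ratios in experiment 1 went with lower ones in experiment 2, with exceptions such as csul (0.24 and -1.04) and BoYb (0.04 and -1.02). Over the 28 members the 2 sets of ratios correlated at r = -0.69, against -0.09 over all tested genes. With Lsd1 in experiment 2, 13 members had under 10 exon reads, so with 1 added their ratios are bounded by the IgG level. The part of this floor in the correlation was not tested. The ratios also ran with exon length, in opposite directions, with a Spearman rho of 0.50 in experiment 1 and -0.42 in experiment 2 over the members, and the part of length in the relation was not tested. This is a description across genes of the same 4 libraries, and no test was made of it. There were 16 members above IgG in experiment 1 and below it in experiment 2 (47.8% of tested genes), 11 below in both (34.7%) and 0 above in both (6.43%).

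In the limma fit of both experiments, 0 of 28 members passed an adjusted p of 0.05 for Lsd1 over IgG, where 2 of 6687 tested genes (0.0299%) did. Fitted log2 changes ran from -1.18 for piwi to -0.32 for vls, with standard errors of 0.54 to 0.80. The smallest adjusted p of a member was 0.962 in this fit. At an unadjusted p under 0.05 there were 0 members, beside 157 tested genes (2.35%), and edgeR on counts called 0 members. DESeq2 gave only 8 of the 28 members an adjusted p and called 0 of these 8, beside 0.681% of the 1761 genes that had one, so it says nothing of the other 20. The call depended on 1 library: without Lsd1 of experiment 1, 20 of 28 members were called lower, where 25.9% of tested genes were called lower and 27% were called in either direction. That fit rests on the thin Lsd1 library of experiment 2 alone, which is assumed to vary like the IgG and Bre1 libraries that gave the spread. Without Lsd1 of experiment 2, 0 members were called and the median fitted change of the members was 0.22 in place of -0.80.

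**Figure D2:**
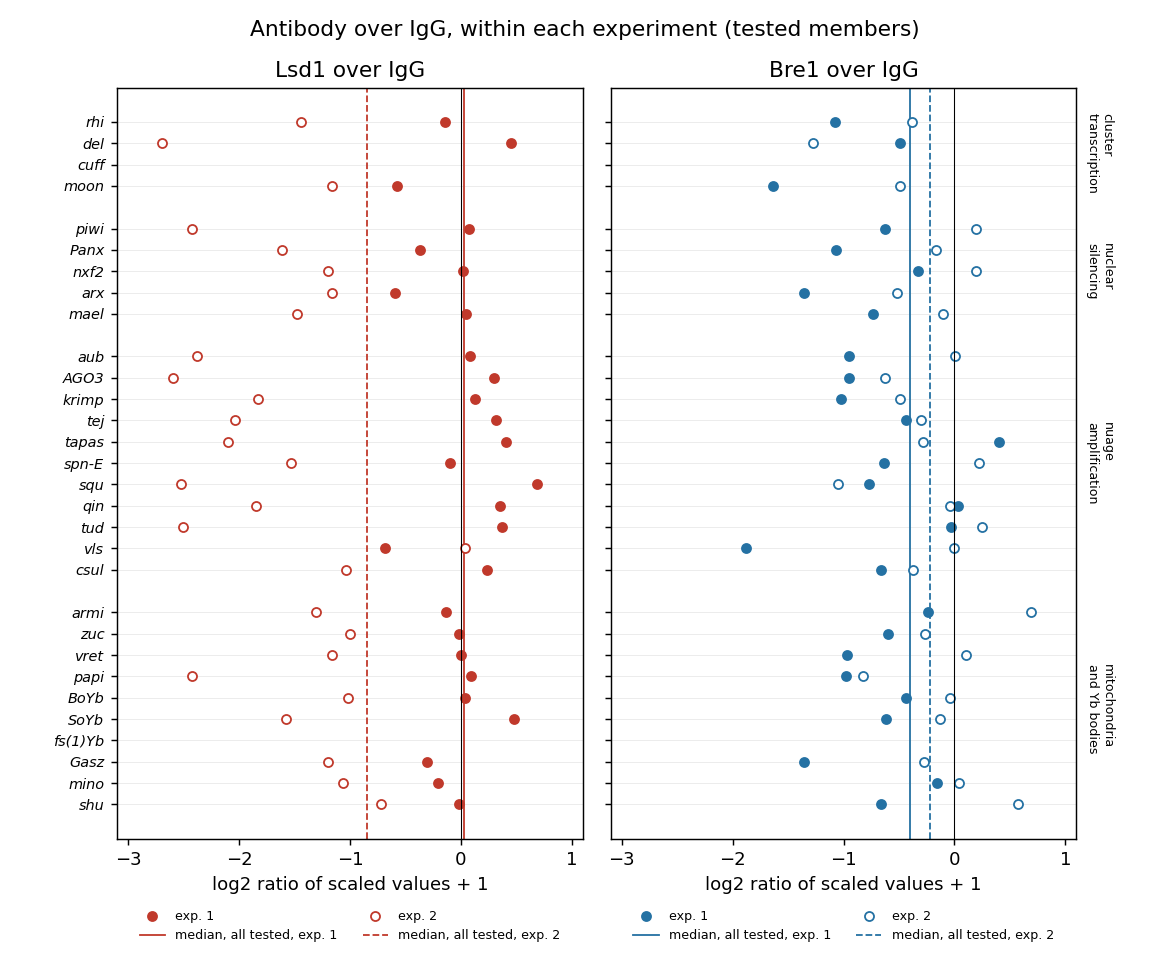
Log2 ratios of Lsd1 (left) and Bre1 (right) to IgG for the 28 tested members, after scaling and with 1 added; filled points are experiment 1 and open points experiment 2. Vertical coloured lines mark the median of all tested genes in each experiment. With Lsd1 the open points lie left of the filled ones for every member but vls.

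Bre1 over IgG had a median log2 ratio of -0.66 over the members in experiment 1, beside -0.40 over all tested genes. Only tapas (0.41) and qin (0.04) were above 0, and vls (-1.88), moon (-1.64), Gasz (-1.36) and arx (-1.36) were lowest. Below 0 lay 26 of 28 members, beside 68.5% of tested genes. This count was 28 in the values as deposited (beside 97.3%) and 22 with quantile normalization (beside 51.4%). Longer members had higher ratios, with a Spearman rho of 0.72 between ratio and exon length over 28 genes of the same 2 libraries. With the length trend removed the median was -0.36, beside 0.01 over all tested genes.

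In experiment 2 the median Bre1 over IgG ratio was -0.15, beside -0.22 over all tested genes. There, armi was at 0.69, shu at 0.57, tud at 0.25 and spn-E at 0.22, whereas del was at -1.28, squ at -1.05 and papi at -0.82. The count above 0 moved with the scaling, for members and all tested genes alike: 10 members lay above 0 here (25.4% of tested genes did), 2 in the values as deposited (armi and shu, beside 2.66%), 18 with quantile normalization (beside 51.2%) and 16 with the length trend removed (beside 50.8%). Cluster transcription was below IgG in both experiments, with medians of -1.08 and -0.49 over its 3 tested genes. In total 16 members were below IgG in both experiments, beside 52.4% of tested genes, and 0 were above in both, beside 10%.

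The limma fit called 0 of 28 members for Bre1 over IgG, where 2 tested genes (0.0299%) passed. Fitted log2 changes ran from -1.06 ± 0.54 (SE) for moon to 0.23 ± 0.78 for armi. Only moon had an unadjusted p under 0.05 (its limma adjusted p was 1.00), beside 260 tested genes (3.89%). On counts, edgeR and DESeq2 called 0 members, where DESeq2 gave all 28 an adjusted p and called 0.015% of tested genes. Without Bre1 of experiment 1, 0 members were called and the median fitted change was 0.24 in place of -0.43.

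Lsd1 was also set directly against Bre1. In experiment 1, 27 of 28 members lay higher with Lsd1 (median log2 ratio 0.77, beside 0.44 over all tested genes), where 71% of tested genes did. The exception was mino, at -0.05. In experiment 2, 27 of 28 lay higher with Bre1 (median -1.41, beside -0.61), where 80.2% of tested genes did, and the exception was vls. The limma fit called 0 of 28 members, where 5 tested genes (0.0748%) passed, and its smallest adjusted p over the members was 1.00. At an unadjusted p under 0.05 there were 0 members and 81 tested genes (1.21%). Leaving out Lsd1 of experiment 2 turned the median fitted change of the members from -0.28 to 0.66. Leaving out Bre1 of experiment 1 took it to -0.97, with 0 members called in either case.

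A measure that needs no scaling between libraries is the share of the reads of all protein-coding genes that the pathway took. In experiment 1 the 30 members held 0.373% of these fragments with IgG (5207 fragments), 0.426% with Lsd1 (6539) and 0.285% with Bre1 (542). In experiment 2 they held 0.467% of exon reads with IgG (40394 reads), 0.0880% with Lsd1 (1021) and 0.519% with Bre1 (38349). The exact 95% binomial intervals were 0.363% to 0.384%, 0.416% to 0.437% and 0.262% to 0.310% in experiment 1. In experiment 2 they were 0.462% to 0.471%, 0.0827% to 0.0935% and 0.513% to 0.524%. The pathway's share was thus 1.14 times that of IgG with Lsd1 in experiment 1 and 0.189 times in experiment 2. With Bre1 it was 0.764 times that of IgG in experiment 1 and 1.11 times in experiment 2. The direction was opposite between experiments for both antibodies. A share also depends on the reads of all other genes, and no other gene set was measured in this way. In the values as deposited, 81% of tested genes lay above IgG with Lsd1 in experiment 1 and 97.6% below it in experiment 2. A value of 1 was reached by 1416 genes with Lsd1 in experiment 2, against 6561 with IgG. These intervals cover counting error only, since reads from PCR without molecular identifiers are not independent molecules, and each holds for 1 library.

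The steps did not move alike in these shares. With Lsd1 in experiment 2 the share relative to IgG was 0.122 for cluster transcription, 0.125 for nuage amplification, 0.159 for nuclear silencing and 0.358 for mitochondria and Yb bodies. With Lsd1 in experiment 1 the same ratios were 1.33, 1.27, 1.02 and 0.987. By this measure, the 2 steps that stood lowest in experiment 2 were those that stood highest in experiment 1. For cluster transcription this was mostly del, with 618 of 699 Lsd1 fragments in experiment 1 and all 81 Lsd1 reads in experiment 2. By the median log2 ratio of its tested genes, this step was the lowest of the 4 in experiment 1, at -0.14. With Bre1 in experiment 2 cluster transcription was at 0.447 of the IgG share, with 1659 of its 1894 reads in del, while mitochondria and Yb bodies were at 1.35, nuclear silencing at 1.25 and nuage amplification at 1.11. With Bre1 in experiment 1 all 4 steps were below IgG, between 0.649 for nuclear silencing and 0.842 for nuage amplification.

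**Figure D3:**
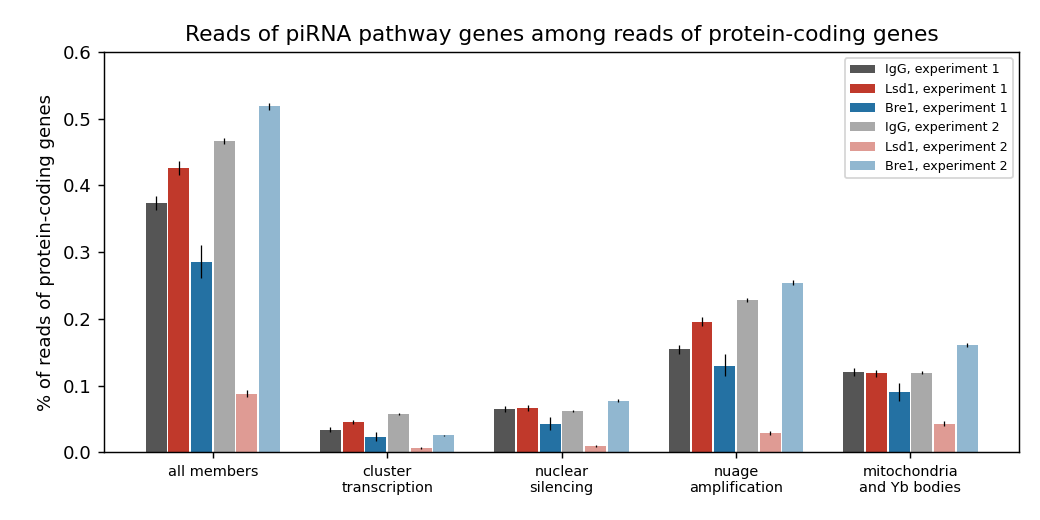
Share of the reads of protein-coding genes held by the 30 members and by each step, in percent, for the 6 libraries. Bars are single libraries and error bars are exact 95% binomial intervals, which cover counting error only. All members together run from 0.0880% (Lsd1, experiment 2) to 0.519% (Bre1, experiment 2).

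Within the pathway's own reads, the make-up in experiment 2 differed between antibodies. Mitochondria and Yb bodies held 25.6% of member reads with IgG, 48.6% with Lsd1 and 31.1% with Bre1, with 95% intervals of 25.2% to 26.0%, 45.5% to 51.7% and 30.7% to 31.6%. Nuage amplification held 48.8%, 32.3% and 49.0%, and cluster transcription 12.3%, 7.93% and 4.94%. The larger share with Lsd1 lay in few genes. For armi the share was 8.94% with IgG, 22.04% with Lsd1 and 15.5% with Bre1. For mino it was 3.60%, 9.01% and 3.84%, and for shu 1.78%, 6.76% and 2.93%. Together with fs(1)Yb (0.374%, 3.43% and 0.605%) and vls (0.451%, 3.43% and 0.464%), these genes took a larger part of the member reads with Lsd1 than with IgG. On the other side, tud went from 18.3% with IgG to 11.0% with Lsd1, papi from 4.45% to 2.25% and AGO3 from 3.89% to 0.0979%.

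In experiment 1 the make-up moved less. Mitochondria and Yb bodies held 32.1% of member fragments with IgG, 27.8% with Lsd1 and 31.5% with Bre1, and nuage amplification 41.3%, 46.0% and 45.6%. The leading gene was tud in all 3 libraries, at 12.1%, 14.9% and 18.1%, whereas armi was at 10.6%, 8.29% and 13.5%. These shares are not corrected for length, and tud had the longest exons of the members (8830 bases). By FPKM with IgG in experiment 1, piwi (14.2) was above tud (5.07). Thus armi held more of the pathway's reads with Bre1 than with IgG in both experiments, and tud did so too (18.3% and 22.8% in experiment 2). For del, which was at 7.43% with IgG and 7.56% with Bre1 in experiment 1, the shares were 11.3% and 4.33% in experiment 2.

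**Figure D4:**
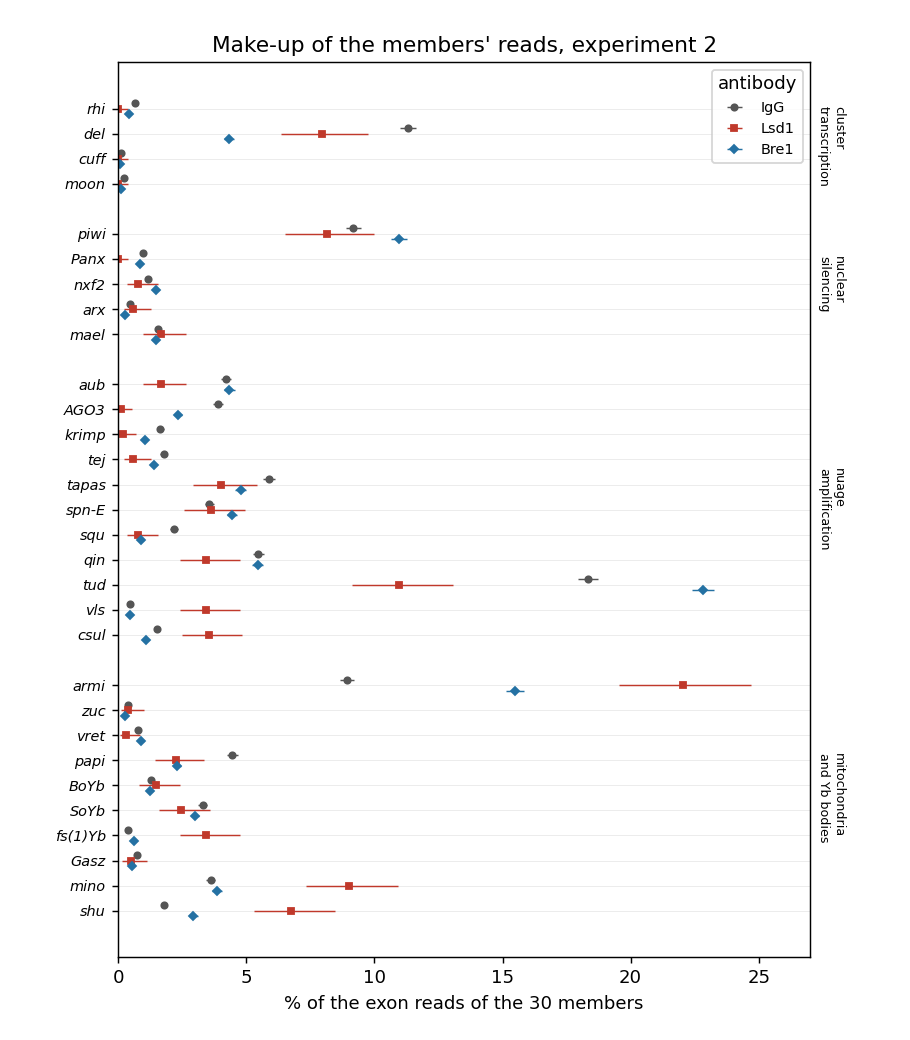
Share of the exon reads of the 30 members that each gene held in experiment 2, in percent, by antibody. Points are single libraries and bars are exact 95% binomial intervals, wide for Lsd1 because its members had 1021 reads in all. With Lsd1, armi leads at 22.04%, whereas tud leads with IgG (18.3%) and Bre1 (22.8%). The shares are not corrected for exon length.

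Reads in introns, which mark unspliced transcripts or other RNA from the locus, were deposited for experiment 2. They came almost wholly from AGO3 and qin, which span 135048 and 59111 bases (chr3L:23554593-23689640 and chr3R:18591027-18650137, dm6). The next longest member, tud, spans 9592 bases. Together AGO3 and qin held 94.7% of the members' intron reads with IgG (10090 of 10652), 85.7% with Lsd1 (90 of 105) and 76.0% with Bre1 (1170 of 1540). For AGO3, introns took 81.6% of gene reads with IgG (6984 of 8554), 98.8% with Lsd1 (81 of 82) and 54.1% with Bre1 (1051 of 1943). For qin they took 58.5% (3106 of 5311), 20.5% (9 of 44) and 5.40% (119 of 2204). Both genes thus had a lower intron share with Bre1 than with IgG, and with Lsd1 they went opposite ways, on 82 and 44 reads.

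The other 28 members were nearly free of intron reads, at 1.51% with IgG, 1.50% with Lsd1 and 1.04% with Bre1. Protein-coding genes outside the pathway were at 7.68%, 3.64% and 1.81%, with no intron-rich genes left out, so the 2 sets are not alike. With AGO3 and qin included, the members were above these genes in each library, at 20.9%, 9.3% and 3.86%. With IgG, 4 members exceeded 5%: AGO3, qin, rhi at 23.3% (78 of 335) and piwi at 5.63% (221 of 3928). With Bre1, rhi had 1 intron read of 159, and piwi was at 4.66%. The kit does not mark strand, so the strand of the intron reads is unknown for AGO3 and qin alike. The span of qin is overlapped by 4 genes and 1 tRNA on the opposite strand and by CG14305 on the same strand. With IgG, CG14305 had 119 exon reads, CG14301 3 and CG14304 1, whereas CG31224 had 2212 but overlaps by 17 bases. The part of these genes in the intron reads of qin was not tested.

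**Figure D5:**
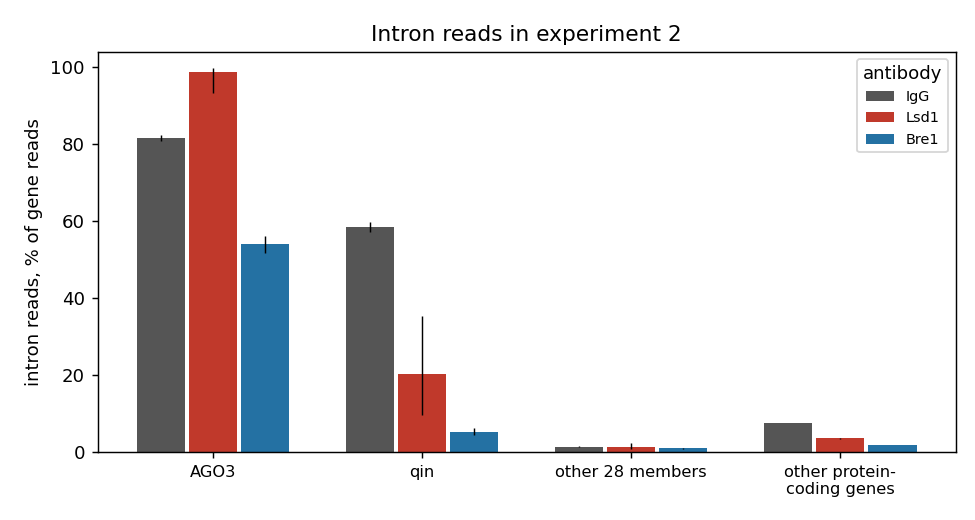
Intron reads as a percentage of gene reads (exon plus intron) in experiment 2, for AGO3, qin, the other 28 members summed and all other protein-coding genes summed. Bars are single libraries with exact 95% binomial intervals. Introns take 81.6%, 98.8% and 54.1% of AGO3 reads with IgG, Lsd1 and Bre1, and 1.04% to 1.51% of the other members' reads.

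Reads across exon junctions mark spliced RNA. Over the 30 members they were 14.8% of exon reads with IgG, 10.1% with Lsd1 and 16.2% with Bre1, beside 14.6%, 9.90% and 13.9% for all protein-coding genes. With IgG and Bre1 the share was 25.5% and 28.7% for piwi, 32.5% and 31.8% for aub, and 24.8% and 23.4% for mino. It was 5.96% and 3.86% for del and 14.5% and 7.22% for arx. For AGO3 it was 17.8% with IgG, and 223 of 892 reads with Bre1. With Lsd1, piwi had 1 junction read of 83, shu 0 of 69 and papi 0 of 23. At the other end, spn-E had 24 of 37, against 21.1% with IgG, and aub had 11 of 17. The 4 members with no junction reads with IgG were moon, Panx, zuc and BoYb, each annotated with 1 exon.

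Some members share their locus. Other genes overlap 18 of the 30, on the opposite strand for 15 and on the same strand for 4. With IgG in experiment 2, uniquely assigned exon reads were 23 of 257 for rhi, 44 of 876 for squ and 57 of 1333 for SoYb, and each lies wholly within the span of a gene on its own strand: CG10936, grp and CG31875. For these 3 genes the deposited value may include reads of the neighbour, and the sources used here do not say how such reads were divided. The gene moon lies within the span of Ten-a on the opposite strand. Of the squ reads, 8 were counted with Lsd1 in experiment 2, and 0 of them were unique.

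In experiment 1, transcripts were listed separately, and 14 members had more than 1. The leading transcript was the same with IgG and Lsd1 for 14 of 14, and the same with IgG and Bre1 for 9 of 14. For del, the transcript of 3163 bases held 71.9% of the gene's FPKM with IgG and 70.7% with Lsd1. With Bre1, where del had 41 fragments, it held 0.264% and that of 3154 bases held 99.7%. For armi the leading transcript, of 4134 bases, held 90.8% with IgG, 64.3% with Lsd1 and 76.3% with Bre1. These splits are estimates of the program between overlapping transcripts, and reads per transcript were not used here.

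Genes that work with the pathway were read from a list of 22, of which 20 were matched and tested. None passed the test for Lsd1 over IgG, Bre1 over IgG or Lsd1 over Bre1 by limma, where 0.0299%, 0.0299% and 0.0748% of tested genes did. At an unadjusted limma p under 0.05 there were 0, 1 and 0 companions, beside 2.35%, 3.89% and 1.21% of tested genes. The helicase gene vas (Vasa, the core nuage helicase) was at 16.5, 20.1 and 9.20 FPKM and at 84.1, 16.5 and 47.3 RPKM. Its scaled log2 ratios to IgG were -0.04 and 0.07 with Lsd1, and 1.06 and -0.17 with Bre1, whereas as deposited vas was at 0.27 and -2.28 with Lsd1 and at -0.78 and -0.82 with Bre1. With Lsd1 in experiment 2, 190 of the 1795 exon reads of vas were uniquely assigned. The Lsd1 gene itself, Su(var)3-3, was at 1.20, 1.73 and 0.267 FPKM and at 5.16, 0.257 and 2.53 RPKM. Its partner CoRest was at 7.65, 9.49 and 3.96 FPKM and at 8.93, 1.54 and 3.95 RPKM. The chaperone gene Hsp83, whose protein works with Shutdown, was far more abundant, at 531, 386 and 57.5 FPKM and at 222, 101 and 275 RPKM. It lay below IgG with both antibodies in experiment 1 (log2 ratios of -0.78 and -1.23) and above it in experiment 2 (1.27 and 0.96). These directions depended on the scaling: with Lsd1 in experiment 2 the ratio of Hsp83 was -1.13 as deposited and -1.99 with quantile normalization, and with Bre1 in experiment 1 it was 0.12 with quantile normalization. As a list, the companions had median Lsd1 over IgG ratios of -0.01 and -1.29 and median Bre1 over IgG ratios of -0.47 and -0.40, beside -0.84 for Lsd1 and -0.22 for Bre1 over all tested genes in experiment 2.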

How the data were processed

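Per the labels, the TruSeq RNA kit was used with its polyA selection skipped. Per the submitters' processing notes, Bowtie2 2.0.6.0, TopHat, Cufflinks and SAMtools 0.1.18.0 were used with build dm6. For experiment 1 the authors deposited Cufflinks FPKM per transcript with confidence limits and a coverage signal, per the file headers; the coverage was not used as a measurement. For experiment 2 the authors deposited RPKM and read counts (exon, unique, junction and intron reads) per gene, per the file headers (program not given in the sources used here). Experiment and quantification therefore cannot be told apart.

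FPKM was summed per gene, and 17101 genes were joined (17021 by identifier, 80 by symbol); 31 lacked an estimate. The 6687 genes that reached 1 in 2 or more libraries were tested. A median ratio over the 1028 genes reaching 1 everywhere scaled each library. Antibody and experiment were the terms of a limma 3.58.1 fit (lmFit, eBayes with trend, R 4.3.3) to log2(scaled value + 1). A call needs a Benjamini-Hochberg adjusted p under 0.05. Adding 1 understates changes of low genes. With 2 residual and 118.8 prior degrees of freedom, the spread used for a gene is mostly that of genes at a similar level. Experiment is a block since each lysate was divided among the antibodies, per the labels. Across genes, deviations from the antibody means correlated at 0.47 (IgG and Lsd1), 0.51 (IgG and Bre1) and 0.11 (Lsd1 and Bre1), to which the different quantification also contributes. P-values rest on how far libraries depart from the sum of the antibody and experiment terms, with the spread taken mostly from genes at a similar level. With 1 library left out, that departure comes from the other antibodies. Fragments of experiment 1 were recovered from the confidence limits and used, with the counts of experiment 2, for shares and for edgeR 4.0.16 and DESeq2 1.42.0 as alternatives. Intervals are exact binomial (scipy 1.17.1). The fits were tested on simulated data.

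All 30 members are named, with their values where they passed the filter, and companion genes are named from a list of 22, those given singly chosen after their values were seen. Marker lists are given as sums, with osk and vas also given singly. The members, steps and lists were chosen with earlier results of these data known. The genes nxf3 and sov were not matched. Hemocyte, gut and fat body markers appear in the closing section. No sequences are shown.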

Additional observations from a re-analysis of the deposited data

How the results depend on the processing

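The limits first. With 2 libraries per antibody and 1 thin library in each comparison with IgG (both in Lsd1 over Bre1), the test had 2 residual degrees of freedom among libraries. Lsd1 of experiment 2 gave 24 members under 50 exon reads, and Bre1 of experiment 1 gave 19 under 10 fragments. Directions changed between experiments, scalings and left-out libraries, and the cause was not tested.

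No member was called under any alternative other than leaving out Lsd1 replicate 1, where 20 were called for Lsd1 over IgG (range over left-out libraries 0 to 20). DESeq2 gave an adjusted p to 8 of the 28 members for Lsd1 over IgG, 28 for Bre1 over IgG and 21 for Lsd1 over Bre1. For Lsd1 over IgG, the number of tested genes called went from 2 to 0 without the replicate block (antibody alone, no paired experiment), with a pseudocount of 0.1, no filter, no scaling, quantile normalization, no mean-variance trend, the length trend removed and edgeR. It went to 15 with a pseudocount of 5, to 12 with DESeq2, and from 0 to 1805 over left-out libraries. For Bre1 over IgG it went from 2 to 0 under the same settings that gave 0 above, the fit without the replicate block included, to 1 with a pseudocount of 5, 5 with a minimum of 5 and 1 with DESeq2, and from 0 to 44 over left-out libraries. For Lsd1 over Bre1 it went from 5 to 0 without the replicate block, with a pseudocount of 0.1, no filter, no scaling, quantile normalization, the length trend removed and edgeR, to 15 with a pseudocount of 5, to 1 without the mean-variance trend, and from 0 to 39 over left-out libraries.

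Median fitted changes kept their direction under every setting that used all 6 libraries for Lsd1 over IgG and Bre1 over IgG. Cluster transcription went from -0.87 to -2.19 with a pseudocount of 0.1 (Lsd1 over IgG), and from -0.88 to -1.30 with 0.1, -0.33 with 5 and -0.33 with the length trend removed (Bre1 over IgG). Without scaling, Bre1 over IgG was at -1.22 over all members, -1.51 for cluster transcription, -1.26 for nuclear silencing, -1.26 for nuage amplification and -1.05 for mitochondria and Yb bodies. Its nuage median was -0.12 with quantile normalization, -0.15 with the length trend removed, -0.039 with edgeR and -0.11 with DESeq2, against -0.47. Over left-out libraries, Bre1 over IgG ran from -1.19 to 0.24 over all members, -1.40 to -0.34 for cluster transcription, -1.25 to 0.28 for nuclear silencing, -1.03 to 0.29 for nuage amplification and -0.84 to 0.25 for mitochondria and Yb bodies. Lsd1 over IgG changed sign in every step without Lsd1 replicate 2, running from -1.61 to 0.03 for cluster transcription, -1.64 to 0.15 for nuclear silencing, -1.96 to 0.32 for nuage amplification and -1.43 to 0.13 for mitochondria and Yb bodies. For Lsd1 over Bre1, the median over all members was -0.28, 0.11 without scaling, and -1.25 to 0.66 over left-out libraries. The members' share of protein-coding reads in experiment 2 was 0.458%, 0.0877% and 0.515% over unique reads for IgG, Lsd1 and Bre1, and 0.544%, 0.0935% and 0.530% with intron reads counted.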

Other observations

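Markers of other tissues were read alongside the pathway. The 5 fat body markers were below a value of 1 in all 6 libraries, with summed values, in the order IgG, Lsd1, Bre1, of 0.360, 0.902 and 0.0220 in experiment 1 and of 0.733, 0 and 0.597 in experiment 2. The 4 hemocyte markers summed to 2.56, 5.40 and 1.66 and to 4.42, 3.32 and 6.504. The 4 gut markers summed to 18.6, 25.02 and 2.92 in experiment 1 and to 2.23, 0.434 and 1.64 in experiment 2, with all 4 at a value of at least 1 with IgG and Lsd1 in experiment 1.

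Among the companions, TfIIA-S, which encodes a subunit of the basal factor TFIIA that works with Moonshiner and Trf2, had the lowest Bre1 over IgG change of the list, at -1.95 ± 0.73 (SE, limma, unadjusted p = 0.00902, adjusted p = 1.00). It was at 9.20, 10.5 and 0 FPKM and at 11.5, 0 and 2.93 RPKM, so its lowest library was again Bre1 in experiment 1 and Lsd1 in experiment 2. The gene Su(var)2-10, which encodes a SUMO ligase of transcriptional silencing, was at 8.52, 13.4 and 0.912 FPKM and at 13.9, 0.255 and 3.65 RPKM. Its scaled log2 ratios to IgG were 0.28 and -2.25 with Lsd1, and -0.99 and -1.04 with Bre1. Both genes were below IgG with Bre1 in both experiments.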
